A study of Homo sapiens with 26 samples.

Results

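The 10 genes described here mark intestinal epithelial identity: the transcription factors CDX1, CDX2, KLF4 and KLF5, the brush border protein VIL1, the keratins KRT20, KRT8 and KRT18, and the surface adhesion proteins CDH1 and EPCAM. They were chosen by name, as known genes of this programme, and by no rule on their values, though earlier results of these data were known. They are 10 of the 17283 genes with a named probe and are measured by 12 of the 21101 named probes, 3 of them for KRT18. The cells were HCT116, a human colon adenocarcinoma line, as an isogenic pair labelled p53 knockout (KO) or p53 wild type (WT), kept in McCoy medium with bovine serum. Leptomycin B, which blocks XPO1 and with it the export of proteins from the nucleus, was given at 2 or 20 nM for 16 h, and total RNA was hybridised to 26 one-colour Illumina arrays. KO-labelled cells had 3 arrays at 2 nM, 3 at 20 nM and 7 untreated, and WT-labelled cells had the same numbers. The labels place the arrays on 7 slides in 2 series: series 1 holds the 20 nM arrays with untreated replicates 4 to 6, and series 2 the 2 nM arrays with untreated replicates 7 to 10. The labels do not state whether replicates came from separate cultures. A p-value here thus reflects only array-to-array spread, possibly technical, and the number of arrays limits the precision.

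CDX1 and CDX2 are homeobox factors that specify and maintain intestinal epithelium, and KLF4 and KLF5 are zinc finger factors, KLF4 known from differentiating cells and KLF5 from proliferating crypt cells. Their programme leads to villin in the microvilli, to the simple-epithelium keratins KRT8 and KRT18, which pair into filaments, and to KRT20 in mature cells. E-cadherin (CDH1) and EPCAM hold epithelial cells together.

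The promoters of CDX2 and KLF4 are shown for what follows. CDX2 was called with treatment in every comparison. For KLF4, the difference between the untreated cells of the labels changed between series, a call that was lost with slide as a random block. Each is the 250 bases before the gene's start from the RefSeq table for GRCh38.p14, 5′ to 3′ on the minus strand, where the table had entries for 5 of the 10 genes. The CDX2 promoter, chr13:27969316-27969565, has the CCAAT box (CCAAT) and the CDX core (TTTAT) in capitals, read on either strand, and 2 matches of each. The KLF4 promoter, chr9:107489770-107490019, has the GC box (GGGCGG), the site of SP and KLF factors, in capitals, with 4 matches on either strand.
CDX2: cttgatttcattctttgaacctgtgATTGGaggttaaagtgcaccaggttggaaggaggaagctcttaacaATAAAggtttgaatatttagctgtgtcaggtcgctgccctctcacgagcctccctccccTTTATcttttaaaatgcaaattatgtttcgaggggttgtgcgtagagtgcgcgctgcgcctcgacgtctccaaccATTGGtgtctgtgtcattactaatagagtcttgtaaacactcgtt
KLF4: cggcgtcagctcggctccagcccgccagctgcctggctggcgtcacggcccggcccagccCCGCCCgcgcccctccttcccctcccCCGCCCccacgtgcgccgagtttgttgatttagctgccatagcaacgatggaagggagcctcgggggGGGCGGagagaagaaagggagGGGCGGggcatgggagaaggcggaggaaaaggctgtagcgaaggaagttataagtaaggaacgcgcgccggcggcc
Of 35116 promoter windows of this table, 42.6% held GGGCGG, 32% held CCAAT and 32.7% held TTTAT on either strand, and TTTAT can overlap the reverse strand of a TATA box (TATAAA). A match describes the letters and is not a measured binding site.

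Before the results, the labels were checked on CDKN1A, which encodes the p53-induced cell cycle inhibitor p21. In untreated cells of series 1 its mean intensity was 2695 in KO-labelled and 13620 in WT-labelled cells, and in series 2 it was 4380 in KO-labelled and 733.2 in WT-labelled cells. KO-labelled minus WT-labelled, this is a log2 difference of -2.27 ± 0.37 in series 1 (SE, adjusted p = 0.000324) but of 2.61 ± 0.321 in series 2 (adjusted p = 1.84e-05; limma, Benjamini-Hochberg over 12962 genes tested). All groups are therefore called KO-labelled and WT-labelled, and no direction between them is read as one of genotype. Whether the labels are crossed in either series was not tested. A label difference whose sign changes between series, and so between doses, is therefore not read as a reversal. Untreated replicates 4 and 10 of both labels stood apart from their groups: 338 to 1369 genes lay over 2-fold from their own group's level there, against at most 159 on any other array, and results whose call turns on them are given with and without them.

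CDX1 and VIL1, which bring intestinal identity and the actin-bundling protein of the brush border, gave no signal above the floor of 10 intensity units on any of the 26 arrays. CDX1 ran from -5.99 to 1.05 (median -3.32) on treated arrays and from -6.50 to 1.57 (median -2.71) on untreated arrays, and values below 0 are as deposited. VIL1 ran from -2.64 to 6.73 (median 1.02) on treated and from -3.59 to 4.04 (median 0.754) on untreated arrays. The ranges of both genes overlapped, and a level at the floor sets only an upper limit. The other 8 genes passed the filter on low values (over an array's 40th percentile on 3 or more arrays) and were tested. KRT8, KRT18, EPCAM and CDX2 lay far above the floor on every array, so 4 of the 7 defining epithelial markers were clearly measured in these cells, CDH1 lay near the floor, and CDX1 and VIL1 were not above it. CDH1, CDX1 and VIL1 are each read by a single probe. How well those probes respond was not tested, so their low signal does not show that the cells lack these transcripts.

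CDX2 was higher and EPCAM was lower on every leptomycin B array than on every untreated array, in both labels and at both doses. CDX2 rose 1.81-fold in KO-labelled cells at 20 nM, its largest change, and EPCAM fell by 0.94 on the log2 scale in KO-labelled cells at 2 nM, its largest change. Of all genes tested, 4.23% lay higher on all treated than on all untreated arrays and 4.88% lay lower. The 12 treated arrays spanned 124.84 to 160.12 for CDX2 (median 140.7), against 69.988 to 109.73 on the 14 untreated arrays (median 93.1). EPCAM spanned 2245.6 to 3575.6 on treated arrays (median 3001) and 3812 to 5456.6 on untreated arrays (median 4423). Across the 26 arrays the log2 levels of the pair had r = -0.853, and within groups r = -0.467, as a description of arrays that share groups and slides. In bulk RNA, fewer cells that express a gene and less RNA per cell cannot be told apart.

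**Figure D1:**
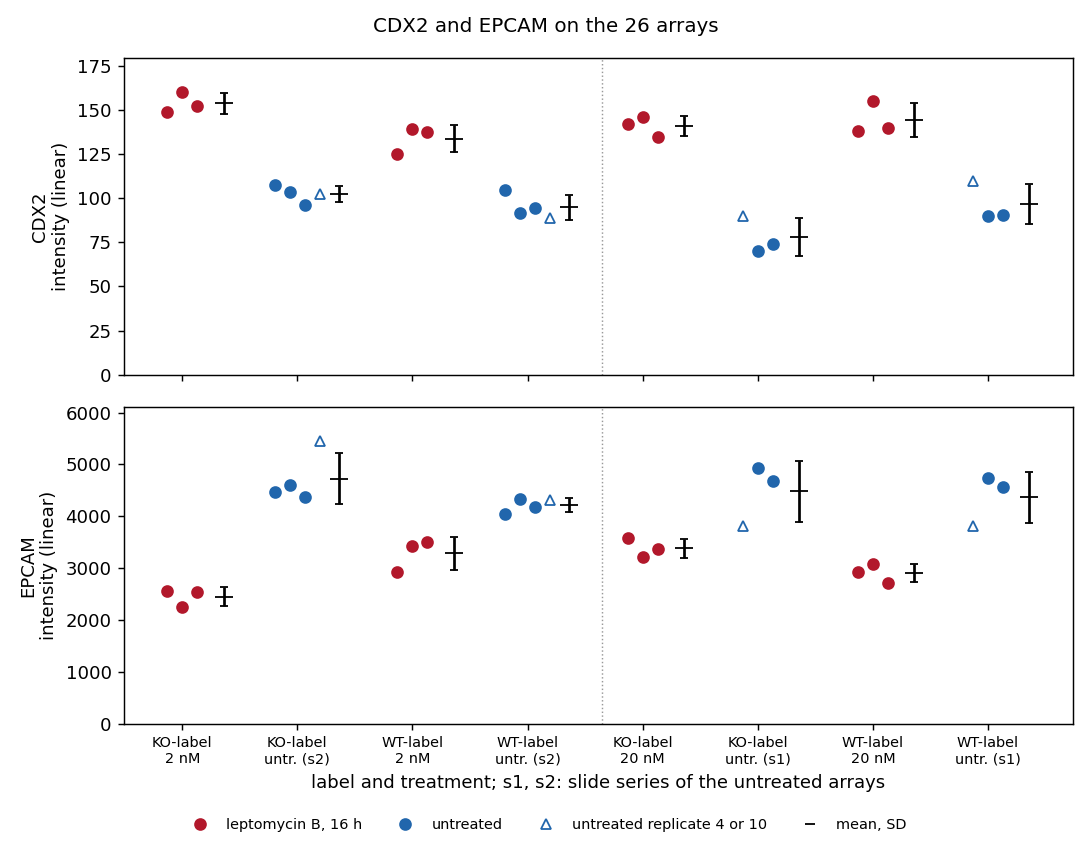
Intensity of CDX2 and EPCAM (linear units) on each of the 26 arrays, by label, dose and slide series (s1, s2), with the group mean and SD as bars and open triangles for untreated replicates 4 and 10. Every treated array lies above every untreated array for CDX2 (124.84 against 109.73 at the nearest) and below for EPCAM (3575.6 against 3812 at the nearest).

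At 2 nM, CDX2 measured 148.6, 160.1 and 152.4 in KO-labelled cells, against 107.6, 103.2, 96.1 and 102.1 in untreated KO-labelled cells of series 2. In WT-labelled cells it measured 124.8, 139.0 and 137.4 at 2 nM, against 104.8, 91.8, 94.4 and 88.5 untreated. All treated arrays were the high ones and no groups overlapped. The log2 differences were 0.59 ± 0.0828 in KO-labelled cells (SE, adjusted p = 8.77e-06) and 0.50 ± 0.0828 in WT-labelled cells (adjusted p = 8.67e-05). At 20 nM, CDX2 measured 141.7, 146.1 and 134.7 in KO-labelled cells, against 90.0, 70.0 and 74.2 untreated, and 137.9, 155.1 and 139.6 in WT-labelled cells, against 109.7, 89.7 and 90.6 untreated. Again the groups were apart, with differences of 0.86 ± 0.0885 (adjusted p = 3.47e-07) in KO-labelled and 0.58 ± 0.0885 (adjusted p = 2.29e-05) in WT-labelled cells. The responses of the labels differed by 0.28 ± 0.125 at 20 nM (adjusted p = 0.207) and by 0.09 ± 0.117 at 2 nM (adjusted p = 0.822). Neither passed the test, the 95% intervals of these differences reaching up to 0.54 at 20 nM and 0.337 at 2 nM. Without untreated replicates 4 and 10 the 20 nM difference was 0.29 (adjusted p = 0.031).

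EPCAM, an adhesion molecule of epithelial surfaces, measured 2565.4, 2245.6 and 2543.4 at 2 nM in KO-labelled cells, against 4465.6, 4610.6, 4380.3 and 5456.6 untreated. In WT-labelled cells it measured 2923.1, 3423.7 and 3504.7, against 4051.8, 4340.6, 4183.6 and 4310.9 untreated. All treated arrays lay below all untreated arrays of their label, and the falls were -0.94 ± 0.0963 in KO-labelled (adjusted p = 1.5e-07) and -0.37 ± 0.0963 in WT-labelled cells (adjusted p = 0.00519). At 20 nM it measured 3575.6, 3205.7 and 3377.9 in KO-labelled cells, against 3819, 4941.5 and 4682.4 untreated, and 2924, 3077.5 and 2719.3 in WT-labelled cells, against 3812, 4741.5 and 4560.4 untreated. Groups were again apart, with -0.40 ± 0.103 in KO-labelled (adjusted p = 0.00464) and -0.58 ± 0.103 in WT-labelled cells (adjusted p = 0.000115). At 2 nM EPCAM fell by 0.58 ± 0.136 more on the log2 scale in KO-labelled than in WT-labelled cells (adjusted p = 0.00688), while at 20 nM the KO-labelled minus WT-labelled difference had the opposite sign, 0.19 ± 0.146, and did not pass (adjusted p = 0.545).

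**Figure D2:**
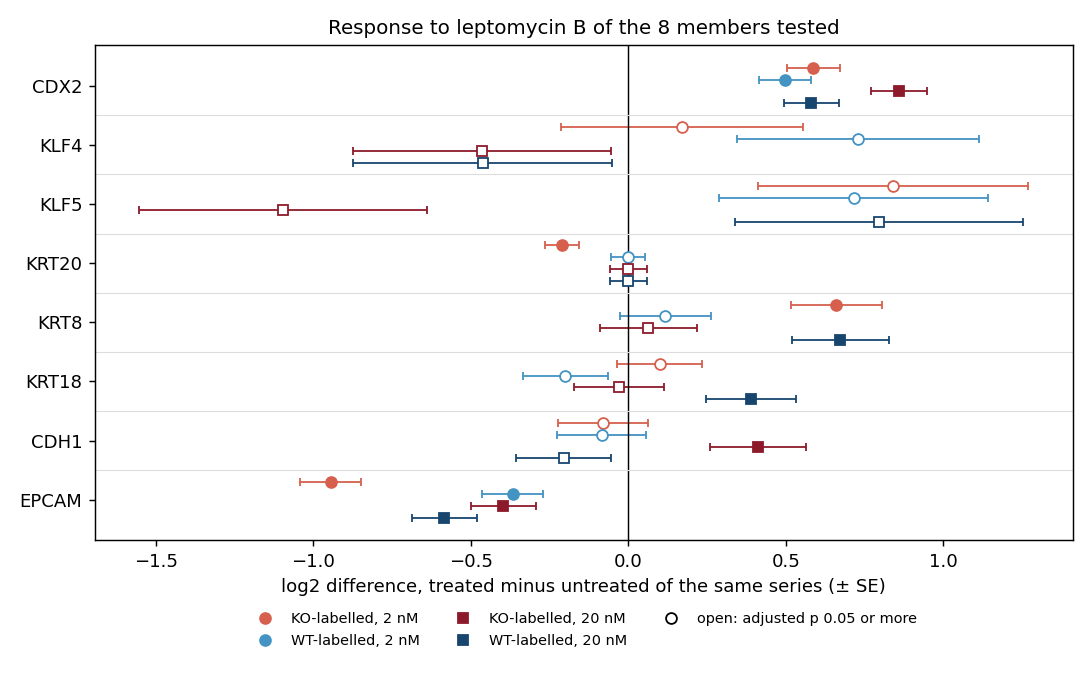
Log2 difference, leptomycin B minus untreated, of the 8 tested genes in each label and dose, as point ± SE, filled where the adjusted p passed 0.05. CDX2 lies above 0 and EPCAM below 0 in all 4 comparisons (0.50 to 0.86 and -0.94 to -0.37), and KRT8 is filled in WT-labelled cells at 20 nM and in KO-labelled cells at 2 nM.

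Counted over the 8 tested genes, the share that changed can be set beside the share of all genes. At 2 nM, 4 of 8 were called in KO-labelled cells, against 43.4% of all genes, and the 2 higher and 2 lower stood against 21.6% of all genes called higher and 21.8% called lower. KRT20, which lay near the floor, was among the lower. In WT-labelled cells 2 of 8 were called, 1 each way, against 36.5%, of which 17.4% were higher and 19.1% lower. At 20 nM, 3 of 8 were called in KO-labelled cells, 2 higher and 1 lower, against 37.2%, of which 18.3% were higher and 18.8% lower. In WT-labelled cells 4 of 8 were called, 3 higher and 1 lower, against 43.2%, of which 21.1% were higher and 22.2% lower. The median log2 difference of the 8 at 2 nM was 0.136 in KO-labelled and 0.0586 in WT-labelled cells. At 20 nM it was -0.0148 in KO-labelled and 0.195 in WT-labelled cells. The median of all genes was 0 each time. Genes at or under the floor in both arms have a difference of exactly 0, and 49.7% of values lay there. That median is therefore no benchmark for the 8. After the floor, 1489 genes did not vary and could not be called, which lowers the shares of all genes where they were tested. The shares called of the 8 lie near the background so computed in all 4 comparisons.

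KRT8, the keratin partner of KRT18, responded in WT-labelled cells at 20 nM and in KO-labelled cells at 2 nM. At 2 nM it measured 6436.5, 6507.1 and 6240.7 in KO-labelled cells, against 4550.4, 4122.2, 4554.3 and 3128.6 untreated, and 4654.2, 4726.4 and 5010.1 in WT-labelled cells, against 4508.4, 4679.3, 4725.7 and 3830.1 untreated. The KO-labelled groups were apart and the WT-labelled ones overlapped, with differences of 0.66 ± 0.144 (adjusted p = 0.000863) in KO-labelled and 0.12 ± 0.144 (adjusted p = 0.662, 95% interval -0.185 to 0.419) in WT-labelled cells. At 20 nM it measured 7188.8, 7209.2 and 6571.1 in KO-labelled cells, against 5534.7, 7750 and 6962 untreated, and 9659.6, 9861.1 and 9336.2 in WT-labelled cells, against 4542.9, 7194 and 6721.4 untreated. Here the KO-labelled groups overlapped and the WT-labelled ones did not, with 0.06 ± 0.154 (adjusted p = 0.933, 95% interval up to 0.386) in KO-labelled and 0.67 ± 0.154 (adjusted p = 0.00136) in WT-labelled cells. Replicate 4 held the lowest untreated value in both labels. The label difference of the KRT8 response missed the test at 20 nM (-0.61 ± 0.218, adjusted p = 0.0936) and at 2 nM (0.54 ± 0.204, adjusted p = 0.0983). Without replicates 4 and 10 it passed at both, at -0.54 (adjusted p = 8.86e-05) and 0.49 (adjusted p = 7.75e-05).

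KRT18, measured here by its brightest probe, was 16336, 15982 and 15026 in KO-labelled cells at 2 nM, against 15696, 16000, 16650 and 11233 untreated. It was 12604, 12491 and 12511 in WT-labelled cells at 2 nM, against 16211, 15052, 15261 and 11528 untreated. The KO-labelled groups overlapped, and the WT-labelled ones did so through replicate 10, the lowest untreated array of each label. The differences were 0.10 (adjusted p = 0.673) in KO-labelled and -0.20 (adjusted p = 0.297) in WT-labelled cells. The KO-labelled value was -0.03 (adjusted p = 0.633) and the WT-labelled one -0.31 without replicates 4 and 10 (adjusted p = 1.09e-05). At 20 nM it was 12922, 13936 and 13548 in KO-labelled cells, against 11536, 15551 and 14465 untreated, and 16672, 16248 and 16438 in WT-labelled cells, against 10428, 13261 and 14308 untreated. The WT-labelled groups were apart, at 0.39 ± 0.144 (adjusted p = 0.035), while the KO-labelled difference was -0.03 (adjusted p = 1). Without replicates 4 and 10 the values were -0.16 (adjusted p = 0.00879) in KO-labelled and 0.26 (adjusted p = 0.000163) in WT-labelled cells. The WT-labelled call was lost when slide was a random block (0.32, adjusted p = 0.218) and without untreated WT-labelled replicate 4 (0.26, adjusted p = 0.194). It also missed the threshold without any single one of the 3 treated arrays (adjusted p = 0.0798, 0.0665 and 0.0712).

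The 3 KRT18 probes did not move alike. The second probe rose in WT-labelled cells at 20 nM (1.09 ± 0.224, adjusted p = 0.000586) and in KO-labelled cells at 2 nM (0.65 ± 0.21, adjusted p = 0.0176), and the third rose in KO-labelled cells at 20 nM (0.55 ± 0.204, adjusted p = 0.0409), in a fit on all probes. Over the 26 arrays the probes correlated pairwise at r = 0.607, 0.468 and 0.475. KRT8 and KRT18 have many processed pseudogenes, and whether the probes also read those was not tested. Across arrays the log2 levels of KRT8 and KRT18 had r = 0.448, and within groups r = 0.891.

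**Figure D3:**
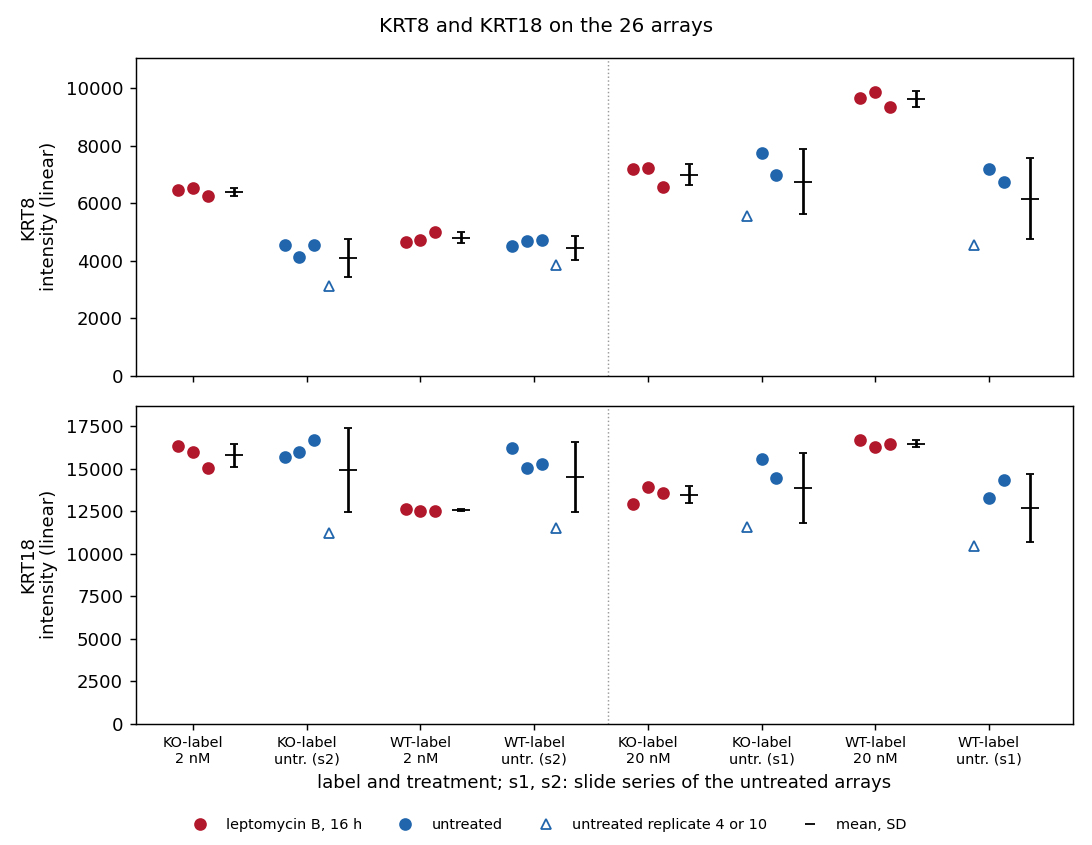
Intensity of KRT8 and of the brightest KRT18 probe (linear units) on each array, by label, dose and slide series, with group mean and SD and open triangles for untreated replicates 4 and 10. KRT8 in WT-labelled cells at 20 nM (9336.2 to 9861.1) lies above all untreated arrays, and replicates 4 and 10 are the lowest untreated arrays of their groups for both keratins.

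KRT20, the keratin of mature enterocytes, exceeded the floor of 10 on 3 of 26 arrays, all of them untreated KO-labelled arrays of series 2. These measured 11.9, 11.2, 8.1 and 13.4, against 5.01 to 8.53 in untreated WT-labelled cells of the same series, and 8.1 was the only one to overlap them. At 2 nM KRT20 measured 4.93 to 8.67 in KO-labelled cells, under the floor, and so was at least 1.16-fold lower than untreated (-0.21 ± 0.0547, adjusted p = 0.00382), although the intensities of the arms overlapped. All other groups were constant at the floor. The SE and adjusted p of KRT20 thus rest almost wholly on the untreated KO-labelled arrays of series 2, and do not measure the spread in the other groups. With the floor at 20 this value was 0, since no array reached that level, with the floor at 5 it was -0.75, and without untreated KO-labelled replicate 10 it was -0.14 (adjusted p = 0.00385). At 20 nM, where all arrays of both arms lay at or under the floor, and in WT-labelled cells at 2 nM, the KRT20 difference was 0. CDH1 (E-cadherin) exceeded the floor on 17 of 26 arrays. At 20 nM it measured 16.6, 14.2 and 18.04 in KO-labelled cells, against 12.7, 12.5 and 11.3 untreated, which did not overlap (0.41 ± 0.152, adjusted p = 0.0389). In WT-labelled cells it measured 9.56, 9.98 and 9.95, against 14.5, 10.6 and 7.18 untreated, and the groups overlapped. The difference there was -0.21 ± 0.152 (adjusted p = 0.322). The KO-labelled call was lost with a floor of 20 (difference 0), with a floor of 5 (adjusted p = 0.256), with slide as a random block (adjusted p = 0.114) and without the filter (adjusted p = 0.0536). At 2 nM CDH1 gave -0.08 ± 0.142 in KO-labelled (adjusted p = 0.79) and -0.08 ± 0.142 in WT-labelled cells (adjusted p = 0.817). The KO-labelled call at 20 nM was also lost without treated replicate 1 (adjusted p = 0.0951) or 3 (adjusted p = 0.149), and without untreated replicate 5 (adjusted p = 0.0671) or 6 (adjusted p = 0.13).

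KLF4 and KLF5, regulators of crypt differentiation and proliferation, varied widely among the untreated arrays of series 1, where replicate 4 was the lowest in both labels. KLF4 measured 12.8, 17.3 and 14.1 at 2 nM in KO-labelled cells, against 11.3, 15.1, 12.5 and 13.4 untreated, and 45.4, 46.6 and 41.1 in WT-labelled cells, against 23.9, 24.1, 22.6 and 39.1 untreated. The KO-labelled groups overlapped and the WT-labelled ones did not, with 0.17 ± 0.384 (adjusted p = 0.878) and 0.73 ± 0.384 (adjusted p = 0.158). At 20 nM it measured 56.0, 57.5 and 59.4 in KO-labelled cells, against 37.4, 122.5 and 109.6 untreated, and 23.9, 26.3 and 18.9 in WT-labelled cells, against 13.7, 47.6 and 47.6 untreated. Treated arrays lay between replicate 4 and the other two untreated arrays in both labels. The differences were -0.46 ± 0.411 in KO-labelled (adjusted p = 0.453) and -0.46 ± 0.411 in WT-labelled cells (adjusted p = 0.436). Without replicates 4 and 10 they were -1.01 (adjusted p = 1.67e-05) and -1.06 (adjusted p = 8.63e-06), and the WT-labelled 2 nM value was 0.91 (adjusted p = 1.58e-05).

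KLF5 measured 33.4, 29.8 and 39.2 in KO-labelled cells at 2 nM, against 16.5, 17.9, 18.1 and 23.9 untreated, and 33.9, 38.0 and 43.9 in WT-labelled cells, against 30.2, 17.9, 27.6 and 20.0 untreated. Treated arrays were higher without overlap in both labels, but 0.84 ± 0.428 (adjusted p = 0.127) and 0.72 ± 0.428 (adjusted p = 0.224) did not pass the test. At 20 nM KLF5 measured 32.5, 38.8 and 29.3 in KO-labelled cells, against 24.6, 130.1 and 112.2 untreated, and 84.3, 62.2 and 28.9 in WT-labelled cells, against 23.6, 36.4 and 33.8 untreated. Both comparisons overlapped, with -1.10 ± 0.457 in KO-labelled (adjusted p = 0.0695) and 0.80 ± 0.457 in WT-labelled cells (adjusted p = 0.183). The KO-labelled value was -1.86 without replicates 4 and 10 (adjusted p = 0.000151), and the KO-labelled value at 2 nM was then 0.95 (adjusted p = 0.0109). The WT-labelled value at 20 nM was 1.24 without treated replicate 3 (adjusted p = 0.0437), the lowest of its arm. Over the 26 arrays the log2 levels of KLF4 and KLF5 had r = 0.623, and within groups r = 0.632.

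**Figure D4:**
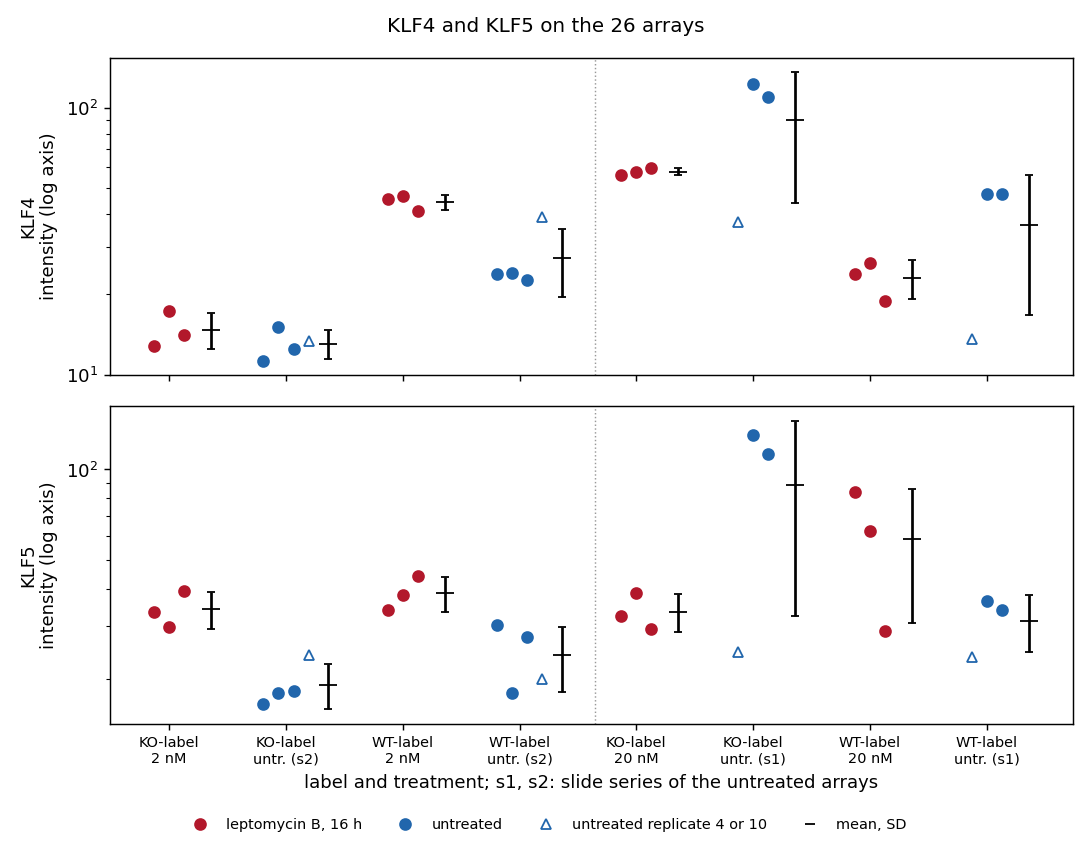
Intensity of KLF4 and KLF5 (log axis) on each array, by label, dose and slide series, with group mean and SD and open triangles for untreated replicates 4 and 10. In untreated KO-labelled cells of series 1, replicate 4 (37.4 for KLF4, 24.6 for KLF5) lies far below the other arrays of its group (109.6 to 122.5 and 112.2 to 130.1).

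The labels' responses to the drug differed for 0 of 8 genes at 20 nM, against 8.85% of all genes, where 4 had an unadjusted p under 0.05 in limma, the only tool run. At 2 nM they differed for EPCAM alone, 1 of 8 against 11.9%. KLF5 came closest at 20 nM, with a KO-labelled minus WT-labelled difference of -1.89 ± 0.647 (adjusted p = 0.079). Once untreated replicates 4 and 10 were left out this passed (-2.47, adjusted p = 0.000661), as it did without KO-labelled replicate 4 (-2.66, adjusted p = 0.000337) or WT-labelled treated replicate 3 (-2.33, adjusted p = 0.0261). Without KO-labelled replicate 4 the untreated labels of series 1 lie on separate slides. For KRT18 the label difference was -0.42 ± 0.204 at 20 nM (adjusted p = 0.254) and 0.30 ± 0.191 at 2 nM (adjusted p = 0.42). Those passed when replicates 4 and 10 were left out, at -0.41 (adjusted p = 0.000147) and 0.28 (adjusted p = 0.00173). For CDH1 the label difference was 0.62 ± 0.215 at 20 nM (adjusted p = 0.0837), which passed without untreated KO-labelled replicate 8 (adjusted p = 0.0463), and 0.004 ± 0.201 at 2 nM (adjusted p = 1). Replicate 8 belongs to series 2 and not to the 20 nM comparison. The value stayed at 0.62 without it, and only the spread estimated over all arrays became smaller (SE 0.185). KRT20 gave 0 at 20 nM and -0.21 ± 0.0773 at 2 nM (adjusted p = 0.0927), which passed without untreated KO-labelled replicate 9 (-0.28, adjusted p = 0.00103). KLF4 gave -0.003 ± 0.581 at 20 nM (adjusted p = 1) and -0.56 ± 0.544 at 2 nM (adjusted p = 0.686), which was -0.73 once replicates 4 and 10 were left out (adjusted p = 0.00548). The signs of KRT8 and KRT18 were the same, negative at 20 nM and positive at 2 nM.

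In untreated cells the label difference changed between slide series for KLF4 and CDX2 and was not called to change for the other 6 tested genes. In series 1, 2 of 8 genes were called, against 14.9% of all genes, in series 2, 1 of 8 (KRT20, near the floor) against 9.15%, and the difference between series was called for 2 of 8, against 21%, a share near the background. KLF4 was higher in KO-labelled cells in series 1 by 1.34 ± 0.411 (adjusted p = 0.0333), and lay at -1.04 ± 0.356 in series 2 (adjusted p = 0.0792). Its values of 37.4, 122.5 and 109.6 in KO-labelled and 13.7, 47.6 and 47.6 in WT-labelled cells overlapped in series 1, whereas the 11.3 to 15.1 of KO-labelled cells lay under the 22.6 to 39.1 of WT-labelled cells in series 2. The change between series was -2.38 ± 0.544 (adjusted p = 0.00371). Same-numbered untreated arrays of the labels deviate together, so the replicate number was also fitted as a block, although KO-labelled replicates 7 and 8 matched WT-labelled replicate 9 better than their own number. KLF4 was then called in both series (adjusted p = 0.000264 in series 1 and 0.000612 in series 2). Once replicates 4 and 10 were left out it was also called in both, at 1.28 in series 1 (adjusted p = 7.86e-06) and -0.87 in series 2 (adjusted p = 0.000101). In that setting the untreated labels lie on separate slides in each series, so label and slide cannot be told apart. Leaving out either label's replicate 4 alone gave calls in series 2 as well (adjusted p = 0.0221 without that of KO-labelled cells and 0.0156 without that of WT-labelled cells). Replicate 4 belongs to series 1, so the series 2 value stayed at -1.04. Only the spread estimated over all arrays became smaller (SE 0.288 and 0.269, against 0.356). The series 1 call was lost without untreated KO-labelled replicate 5 (1.03, adjusted p = 0.19) or 6 (1.11, adjusted p = 0.161), without WT-labelled replicate 4 (0.74, adjusted p = 0.182), and with slide as a random block (0.95, adjusted p = 0.236). With slide as that block the change between series missed the threshold too (adjusted p = 0.0862).

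CDX2 was lower in untreated KO-labelled than WT-labelled cells in series 1, at -0.31 ± 0.0885 (adjusted p = 0.0226) and lay at 0.11 ± 0.0766 in series 2 (adjusted p = 0.495), and the change between series was 0.42 ± 0.117 (adjusted p = 0.0145). With the replicate block the series 2 difference was called too (adjusted p = 0.0421). The series 1 call was lost without KO-labelled replicate 5 (adjusted p = 0.147) or 6 (adjusted p = 0.1), without WT-labelled replicate 4 (adjusted p = 0.115), with a floor of 5 (adjusted p = 0.0542) and with slide as a random block (adjusted p = 0.163). The change between series was lost with slide as a random block (adjusted p = 0.197) and without KO-labelled replicate 5 (adjusted p = 0.0561). KRT20 was at least 1.16-fold higher in KO-labelled cells in series 2 (0.21 ± 0.0506, adjusted p = 0.0111). That SE rests almost wholly on the KO-labelled arrays, since all other groups lay at or under the floor. The value was 0.14 without KO-labelled replicate 10 (adjusted p = 0.0102) and 0.89 with a floor of 5, and the call was lost with a floor of 20 (difference 0) and with slide as a random block (adjusted p = 0.341). KLF5 missed the test in series 1 (1.21 ± 0.457, adjusted p = 0.0867) and passed with the replicate block (adjusted p = 0.0313), as did its change between series (-1.51 ± 0.605, adjusted p = 0.086, and 0.0345 with the block) and that of KRT8 (-0.28 ± 0.204, adjusted p = 0.408, and 0.022 with the block). Without KO-labelled replicate 4, KLF5 was at 1.98 in series 1 (adjusted p = 0.00019) and its change between series at -2.28 (adjusted p = 0.000376), and with replicates 4 and 10 left out these were 1.79 (adjusted p = 0.000856) and -2.28 (adjusted p = 0.000875). In both settings the untreated labels of series 1 lie on separate slides, so label and slide cannot be told apart. In series 2 KLF5 gave -0.31 ± 0.396 (adjusted p = 0.848). KRT8 gave 0.15 ± 0.154 in series 1 (adjusted p = 0.671) and -0.13 ± 0.133 in series 2 (adjusted p = 0.743). KRT18 gave 0.13 ± 0.144 in series 1 (adjusted p = 0.702) and 0.03 ± 0.125 in series 2 (adjusted p = 1), and CDH1 0.08 ± 0.152 (adjusted p = 0.95) and 0.01 ± 0.131 (adjusted p = 1) in the same series. EPCAM gave 0.03 ± 0.103 in series 1 (adjusted p = 1) and 0.16 ± 0.0892 in series 2 (adjusted p = 0.359).

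**Figure D5:**
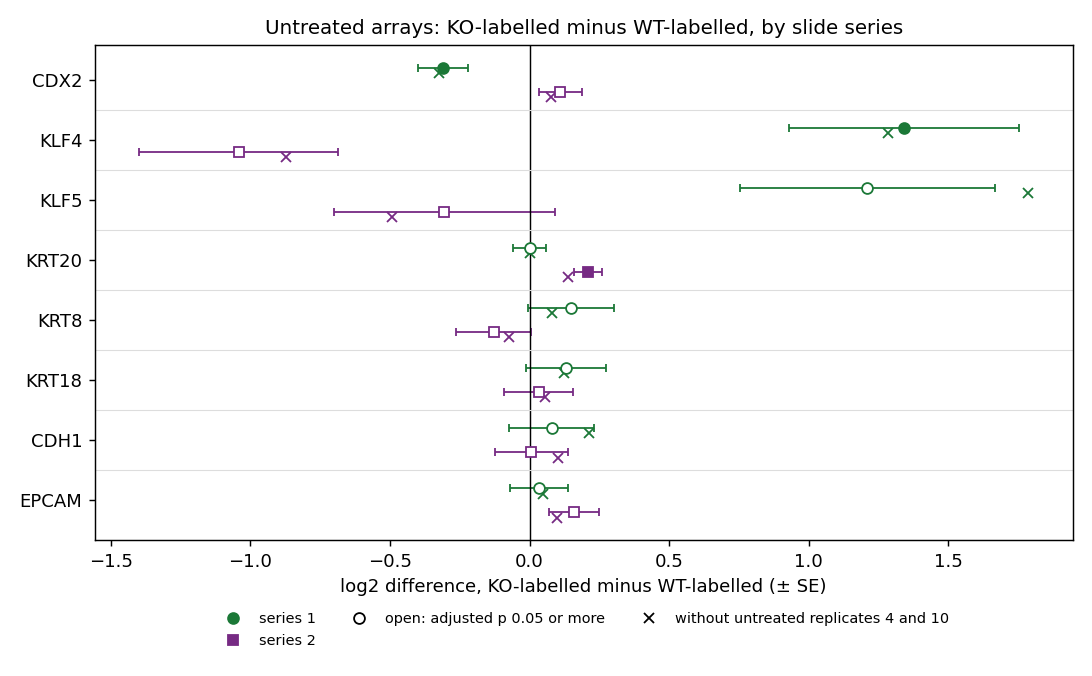
Log2 difference, KO-labelled minus WT-labelled untreated cells, of the 8 tested genes in series 1 and series 2, as point ± SE, filled where the adjusted p passed 0.05, with crosses for the value without untreated replicates 4 and 10. KLF4 lies at 1.34 in series 1 and -1.04 in series 2, and CDX2 at -0.31 and 0.11.

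Genes of the same programme were counted by lists chosen with earlier results of these data known. The counts below stand beside the shares of all genes: 21.6% higher and 21.8% lower in KO-labelled and 17.4% higher and 19.1% lower in WT-labelled cells at 2 nM, and 18.3% higher and 18.8% lower in KO-labelled and 21.1% higher and 22.2% lower in WT-labelled cells at 20 nM. These shares hold for the fit with all arrays. They include any tested genes that the floor left without variance, which cannot be called. Counts without replicates 4 and 10 have no such share beside them. Leaving those arrays out raised the calls over all genes between untreated labels in series 1 from 1927 to 5121. Of 13 tested intestinal transcription factors, 0 rose and 2 fell in KO-labelled and 2 rose and 1 fell in WT-labelled cells at 2 nM, and 2 rose and 2 fell in KO-labelled and 0 rose and 5 fell in WT-labelled cells at 20 nM. Without replicates 4 and 10 these counts were 2 higher and 3 lower in KO-labelled and 4 and 1 in WT-labelled cells at 2 nM, and 2 and 4 in KO-labelled and 0 and 6 in WT-labelled cells at 20 nM. PPARG, a nuclear receptor of differentiating colonocytes, fell in all 4 comparisons, at -1.89 in KO-labelled and -1.29 in WT-labelled cells at 2 nM, and -1.39 in KO-labelled and -1.49 in WT-labelled cells at 20 nM. FOXA1, a forkhead factor of endoderm, rose in WT-labelled cells at 2 nM (1.25) and in KO-labelled cells at 20 nM (0.79). Of 15 tested differentiation genes, 3 rose and 0 fell in KO-labelled and 1 rose and 1 fell in WT-labelled cells at 2 nM, and 1 rose and 2 fell in KO-labelled and 3 rose and 1 fell in WT-labelled cells at 20 nM. With replicates 4 and 10 left out the differentiation counts were 2 higher and 1 lower in KO-labelled and 1 and 2 in WT-labelled cells at 2 nM, and 1 and 2 in KO-labelled and 2 and 2 in WT-labelled cells at 20 nM. CA2, a carbonic anhydrase of the colon surface, rose in all 4, by 1.74 in KO-labelled and 1.88 in WT-labelled cells at 2 nM, and by 1.93 in KO-labelled and 1.28 in WT-labelled cells at 20 nM. CEACAM1, an adhesion receptor, rose in KO-labelled cells at 2 nM (3.40) and in WT-labelled cells at 20 nM (1.85). Others of this list fell. ESPN fell at 20 nM, at -0.93 in KO-labelled and -1.16 in WT-labelled cells, and in WT-labelled cells at 2 nM (-0.48). EZR fell in KO-labelled cells at 20 nM (-0.35), a call lost with slide as a random block (adjusted p = 0.141).

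Of 39 tested adhesion and keratin genes, 5 rose and 12 fell in KO-labelled and 5 rose and 12 fell in WT-labelled cells at 2 nM, and 2 rose and 14 fell in KO-labelled and 3 rose and 13 fell in WT-labelled cells at 20 nM, against 21.6%, 17.4%, 18.3% and 21.1% of all genes higher and 21.8%, 19.1%, 18.8% and 22.2% lower in these 4 comparisons. CLDN7, a tight junction claudin, fell at 2 nM, at -1.81 in KO-labelled and -1.30 in WT-labelled cells. GRHL2, a transcription factor of epithelial junction genes, fell at 20 nM, at -1.44 in KO-labelled and -1.81 in WT-labelled cells. KRT80 rose by 2.97 in KO-labelled and 1.81 in WT-labelled cells at 2 nM. SNAI1, a repressor of CDH1 in mesenchymal transition, was the only one of 5 tested mesenchymal genes to rise in these 4 comparisons, by 2.11 in KO-labelled and 2.62 in WT-labelled cells at 2 nM, and by 1.56 in KO-labelled and 2.12 in WT-labelled cells at 20 nM. VIM, of the same list, fell in KO-labelled cells at 2 nM (-0.46), near the floor (mean 10.1 against 15.0 untreated). Without replicates 4 and 10, SNAI1 rose by 0.95 in KO-labelled cells at 20 nM, and the adhesion counts were 12 higher and 12 lower in KO-labelled and 11 and 16 in WT-labelled cells at 2 nM, and 3 and 17 in KO-labelled and 7 and 19 in WT-labelled cells at 20 nM. The shares of all genes in that setting are not given, so these adhesion counts cannot be set against them.

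Of 15 tested KLF and SP factors, 1 rose and 3 fell in KO-labelled and 6 rose and 0 fell in WT-labelled cells at 2 nM, and 2 rose and 5 fell in KO-labelled and 1 rose and 8 fell in WT-labelled cells at 20 nM, beside the same shares of all genes. KLF11 rose in KO-labelled (1.27) and WT-labelled (1.51) cells at 2 nM and in KO-labelled cells at 20 nM (1.45), and SP1, the founding GC box factor, fell at 20 nM, at -1.01 in KO-labelled and -1.61 in WT-labelled cells. Without replicates 4 and 10 the KLF and SP counts were 2 higher and 6 lower in KO-labelled and 6 and 2 in WT-labelled cells at 2 nM, and 2 and 9 in KO-labelled and 1 and 9 in WT-labelled cells at 20 nM, again with no share of all genes for that setting. Markers of fibroblasts lay at or under the floor on all arrays for 9 of 11 genes, and those of blood and endothelium for 8 of 13. The summed intensity of the fibroblast markers was 28.1 to 58.8 and that of the blood and endothelial markers 101 to 327 over the 26 arrays. The blood and endothelial sum was highest in WT-labelled cells at 2 nM (287.8 to 327) and KO-labelled cells at 20 nM (290.7 to 305.4). HBA1 and CD14 rose in all 4 comparisons and CD68 fell in both labels at 2 nM. Of the fibroblast markers, COL5A1 exceeded the floor on 26 arrays and COL1A1 on 14, and the other 9, among them COL1A2, DCN, LUM and PDGFRB, on none. Of the blood and endothelial markers, HBA1 and CD68 exceeded it on 26 arrays, CD14 on 14, LYZ on 6 (at most 11.7) and the leukocyte marker PTPRC on 4 (at most 11.6), and the other 8, among them CD3E, CD79A, PECAM1, VWF and CDH5, on none. Their part in the results above was not tested.

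The genes whose log2 levels followed the members most closely over the 26 arrays, which share groups and slides, are given as a description. For CDX2 they were PEX5 (r = 0.973), MUC1 (0.971) and NAPB (0.964). For EPCAM they were ZNF165 (0.933), GPX8 (0.933) and SLC25A5 (0.925), and for KRT8 KCTD13 (0.953), SLC25A22 (0.949) and TMBIM1 (0.942). For KLF4 they were GFPT1 (0.944), ARF1 (0.943) and CISD2 (0.932), and for KLF5 CCNL1 (0.948), TXNL1 (0.895) and DUSP8 (0.889).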

How the data were processed

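Total RNA of 26 HCT116 samples was hybridised to 1 Illumina array each. The deposited table holds linear intensity values that the authors made with BeadStudio, per the submitters' processing notes. How background was corrected and arrays were normalized is not given in the sources used here. Of the deposited intensity values, 20.4% were below 0 and 49.7% were at or under 10. Of 22177 probes, 1076 had no gene symbol and 21101 had exactly 1. The brightest probe on average stood for its gene.

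Intensities were set to a floor of 10 and log2 values taken, which understates changes of dim genes. Genes above the array's 40th percentile on at least 3 arrays were tested, 12962 in all. After the floor, 1489 genes had no variance, and such genes cannot be called. In R 4.3.3, limma 3.58.1 (lmFit, eBayes) fitted 8 cells of label, dose and slide series with 18 residual degrees of freedom, and statmod 1.5.0 served for random blocks. The Benjamini-Hochberg adjustment ran over all 12962 genes, with calls at adjusted p under 0.05. Responses compare treated with untreated arrays within a label and series. In series 1 treated and untreated arrays share no slide, so drug and slide cannot be told apart there. Slide was also fitted as a random block, which cannot separate them. In series 2 each label has its own slide, which holds its treated and untreated arrays, so there slide and label cannot be told apart. The fits were run on simulated data in which arrays were independent, with no slide effect, pairing or outlying arrays. How the fits behave with those features was not tested.

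Same-numbered untreated arrays of the labels deviated together in all 7 pairs (r of 0.327 to 0.814), so the numbers were taken to pair them. KO-labelled replicates 7 and 8 matched WT-labelled replicate 9 better than their own number (r of 0.327 and 0.472 with their own). Replicates 4 and 10, which stood apart in both labels, had r of 0.761 and 0.814, and how far the other pairs rest on them was not tested. The pairing is thus uncertain. The treated arrays' pairs had r of -0.0444 to 0.102. All 10 genes were followed, 8 of them tested in every comparison, with up to 3 called genes of each list whose arms do not overlap, and CDKN1A as the label check. The members and lists were chosen with earlier results of these data known. Other floors, quantile normalization, no filter, all probes, slide as a random block, a replicate block, arrays left out and, added after seeing the data, a filter on genes above the floor were tried. The targeted gene's transcript is not reported here.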

Additional observations from a re-analysis of the deposited data

Results flagged for a closer look

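The change of the label difference of untreated cells between series was larger than the spread between arrays for CDX2 (0.42 ± 0.117 log2 units, adjusted p = 0.0145, limma) and for KLF4 (-2.38 ± 0.544, adjusted p = 0.00371). With slide as a random block neither passed (adjusted p = 0.197 for CDX2 and 0.0862 for KLF4). That of CDX2 was also lost without KO-labelled replicate 5 (adjusted p = 0.0561). In series 2 each label has its own slide, so label and slide cannot be told apart there. The EPCAM response at 2 nM differed between KO-labelled and WT-labelled cells by -0.58 ± 0.136 log2 units (adjusted p = 0.00688). In untreated cells of series 2, replicate 10 lay far from the other 3 arrays of its group for KLF4 in WT-labelled cells (39.12, the others 22.64 to 24.09) and for KRT18 in KO-labelled cells (11230, the others 15700 to 16650). These are 2 of 30 groups checked for such arrays, and chance flags about 1 in 20 groups.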

How the results depend on the processing

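Counts of the 8 tested genes called were compared across settings. Without untreated replicates 4 and 10 the count was 6 in KO-labelled cells at 20 nM, 4 in WT-labelled cells at 2 nM, 2 for untreated labels in series 2, and 4 each for the label difference of responses at 20 and 2 nM. Calls over all genes rose too in this setting, for untreated labels in series 1 from 1927 to 5121. For the drug responses the share of all genes in this setting is not given, so the counts of 6 and 4 are not read as a result about these genes. With slide as a random block it was 0 for untreated labels in series 1, in series 2 and for the change between series. With the replicate block, the paired fit, it was 3 in untreated cells of series 2, 4 for the change between series, 5 for the response difference at 20 nM and 3 at 2 nM, although treated arrays' numbers do not pair them. A floor of 5 gave 1 in untreated cells of series 1 and 2 for the response difference at 2 nM, a floor of 20 gave 0 in series 2, and the added filter gave 2 there. The causes were not tested.

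Leaving out single arrays gave 2 to 5 calls in KO-labelled and 3 to 5 in WT-labelled cells at 20 nM, 4 to 5 and 2 to 3 at 2 nM, 0 to 3 and 1 to 2 between untreated labels in series 1 and series 2, 1 to 3 for the change between series, and 0 to 3 and 1 to 2 for the response differences at 20 and 2 nM. Over single genes, 1800 of 1872 values from leaving out an array and 559 of 616 from other settings kept their direction and side of the threshold. Calls were lost in 15 and 13 of them and gained in 22 and 34. The remaining 35 and 10 changed sign, all with no call before or after, for example KRT18 in KO-labelled cells at 2 nM (-0.03 without replicates 4 and 10, against 0.10) and KRT8 in KO-labelled cells at 20 nM (-0.07, against 0.06).

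Over all genes tested, 1927 were called between untreated labels in series 1, against 1108 with the slide block, 5121 without replicates 4 and 10, 3997 with the replicate block and 1100 to 3850 with a single array left out. In series 2, 1186 were called, against 254, 3638 and 2786 in the same settings. For the change between series, 2716 were called, against 1168, 5426 and 4624, and up to 4176 with an array left out. For response differences 1147 were called at 20 nM, against 694, 4354 and 2868, and up to 2594 with an array left out, and 1547 at 2 nM, against 3947 without replicates 4 and 10 and 3003 with the replicate block. No paired analysis was possible for the drug responses because treated and untreated arrays share no replicate numbers.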
